A study of Mus musculus with 12 samples.

Results

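Of the 28944 experimental probe sets on the array, 62 carried only gene symbols made of Zfp and a 3-digit number of 800 or above. They named 59 zinc finger genes, each probe set with 1 symbol, and RefSeq gave the same symbol for all 62. This rule used symbols and no measured value, but it was chosen with earlier results of these data known. Expression was measured in whole main olfactory epithelium (MOE), the nasal tissue that holds the odour-sensing neurons, of mice aged 6 months. H2be-KO mice carried a knock-in in which a Gap43-mCherry fusion, a membrane-bound red fluorescent protein, takes the place of the H2be coding sequence. The line had been crossed to C57Bl/6, and WT mice kept the intact gene. Each genotype had 6 arrays, each hybridised with RNA pooled from 2 mice, and signals were on a log2 scale.

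Zinc finger proteins of the KRAB type form a large and fast evolving family of DNA-binding proteins in mammals. Their fingers recognise particular DNA sequences, often inside retroviral elements, and the KRAB domain recruits the corepressor Trim28, which brings in the histone methyltransferase Setdb1 and heterochromatin protein such as Cbx5. Genes of this kind lie in tandem clusters of close relatives. Most members are of the KRAB type, while Zfp800, Zfp827 and Zfp830 are known as zinc finger genes without that domain, and the set is therefore called by its symbols here. Probe sets of related members can read each other's transcripts, so a value belongs to its probe set more firmly than to a single gene. In whole tissue, fewer cells of a type and less RNA per cell cannot be told apart.

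Arrays correlated with each other at 0.951 to 0.985 over the 28151 probe sets whose mean signal exceeded log2 5. The H2be probe set, annotated as H2bc21, read 11.51 to 11.84 in H2be-KO and 11.63 to 12.12 in WT, a mean difference of -0.24 with groups that overlapped (two-sided exact permutation p = 0.0195, n = 6 per genotype). The probe sequences were not compared with the deleted coding sequence, so this signal is a weak check of the labels. The marker of mature olfactory neurons, Omp, read 12.9 in both genotypes. Of 31 cell type marker probe sets tested, 22 (71.0%) had the higher mean in H2be-KO, against 56.2% of all probe sets tested. Their median difference was 0.08, against 0.02 over all. At an unadjusted limma p under 0.05, 2 markers were higher (6.45%) and 0 lower, against 3.78% and 1.77% of all. Those 2 were Gap43, of immature neurons, at +0.25, and Fabp7, of ensheathing glia, at +0.22, and their part in the results below was not tested. The H2be-KO allele encodes a Gap43-mCherry fusion, and whether the Gap43 probe set reads its transcript was not checked. Dpysl3 and Gng8, also of immature neurons, differed by +0.17 and +0.11 and were not called. Replicates 1 to 3 of each genotype were high in Xist, the transcript of the inactive X chromosome (11.39 to 11.67), and replicates 4 to 6 were high in the Y-linked gene Eif2s3y (10.54 to 10.72), so the sexes were balanced between genotypes at 3 arrays each. In H2be-KO, 2 arrays exceeded log2 11 for Amelx, an enamel gene, which averaged 5.58 in WT.

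Of the 62 probe sets, 58 passed the level of log2 5 and were tested. At an unadjusted limma p under 0.05, 5 of the 58 (8.62%) were higher in H2be-KO, against 3.78% of all probe sets tested. None was lower, against 1.77% of all, and the remaining 53 passed in neither direction. The exact permutation test, which the methods did not use, also called 5 members higher and 0 lower, against 3.98% and 2.03% of all probe sets. No member passed after Benjamini-Hochberg adjustment over all 28151 probe sets (lowest limma adjusted p 0.753), nor did any other probe set (lowest 0.572).

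Most members lay above 0 in the comparison without being called. The log2 difference, H2be-KO minus WT, was positive for 46 of the 58 (79.3%), against 56.2% of all probe sets tested. Its median was 0.16 over the members, with quartiles of 0.08 and 0.23 and a range from -0.23 to 0.47, against a median of 0.02 over all probe sets. A difference above 0.2 was found for 21 members (36.2%) and for 9.82% of all probe sets, and a difference below -0.2 for 1 member (1.72%) and for 4.82% of all. Counts over all probe sets were 1065 higher and 498 lower, and quantile normalization of the deposited values turned this split to 827 and 899, while the members stayed at 5 higher and 0 lower with a median of 0.14. The count of members called depended on single arrays: leaving out WT replicate 6 gave 17, H2be-KO replicate 4 gave 11, WT replicate 3 gave 9, and either of H2be-KO replicate 3 and WT replicate 4 gave 3. Counts over all probe sets moved too, from 1065 higher to 2265, 2235, 964, 589 and 776 in the same order. Members share arrays and probes and are no replicates of the comparison.

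**Figure D1:**
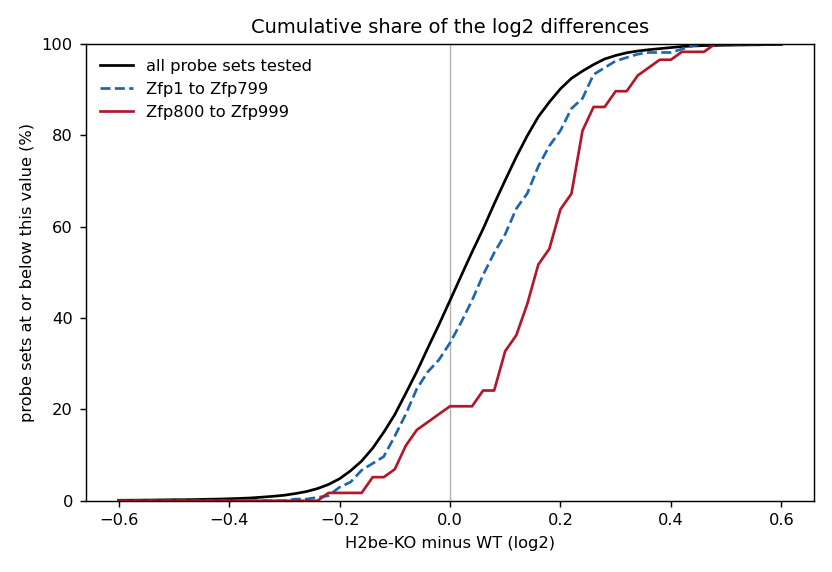
Cumulative share (%, vertical axis) of probe sets at or below each log2 difference between H2be-KO and WT (horizontal axis), for the 58 members (red), the 269 probe sets of Zfp1 to Zfp799 (blue, dashed) and all 28151 probe sets tested (black). The curve of the members lies to the right of the others from -0.2 to 0.46, with a median of 0.16 against 0.06 and 0.02. At 0.48 it stands at 100%, against 99.68% of all probe sets.

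The remaining numbered Zfp genes, with numbers below 800, were set beside the members as the same nomenclature outside the rule. Of their 269 probe sets tested, 16 were called higher and 6 lower, 65.4% were positive and the median difference was 0.06. The members' positive differences were not limited to a range of signal. Median differences were 0.09 for the 5 members between log2 5 and 6, 0.20 for the 12 between 6 and 7, 0.18 for the 15 between 7 and 8, 0.14 for the 20 between 8 and 9, and 0.13 for the 6 above 9. Over all probe sets, the medians in those ranges ran from -0.0040 to 0.05.

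The plot of signal per array shows the 5 members called, together with 3 others described below. Zfp873, a chromosome 10 member, had the largest difference of all 58 members. Its signal in H2be-KO was 7.39 at the lowest, 7.67 at the median and 7.95 at the highest, and in WT 6.92, 7.14 and 7.63. In WT, 5 of the 6 arrays lay between 6.92 and 7.18 and replicate 6 stood above them, while 4 of 6 H2be-KO arrays exceeded every WT array. The difference of 0.47 ± 0.12 (SE) corresponded to 1.39-fold (two-sided exact permutation p = 0.0065, n = 6 per genotype, limma adjusted p 0.753). Zfp938, its neighbour, differed by 0.12 ± 0.12 (exact permutation p = 0.349). Between these neighbours, deviations of arrays from their genotype means correlated at 0.76 over the 12 arrays, which share both libraries and any cross-hybridising probes.

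**Figure D2:**
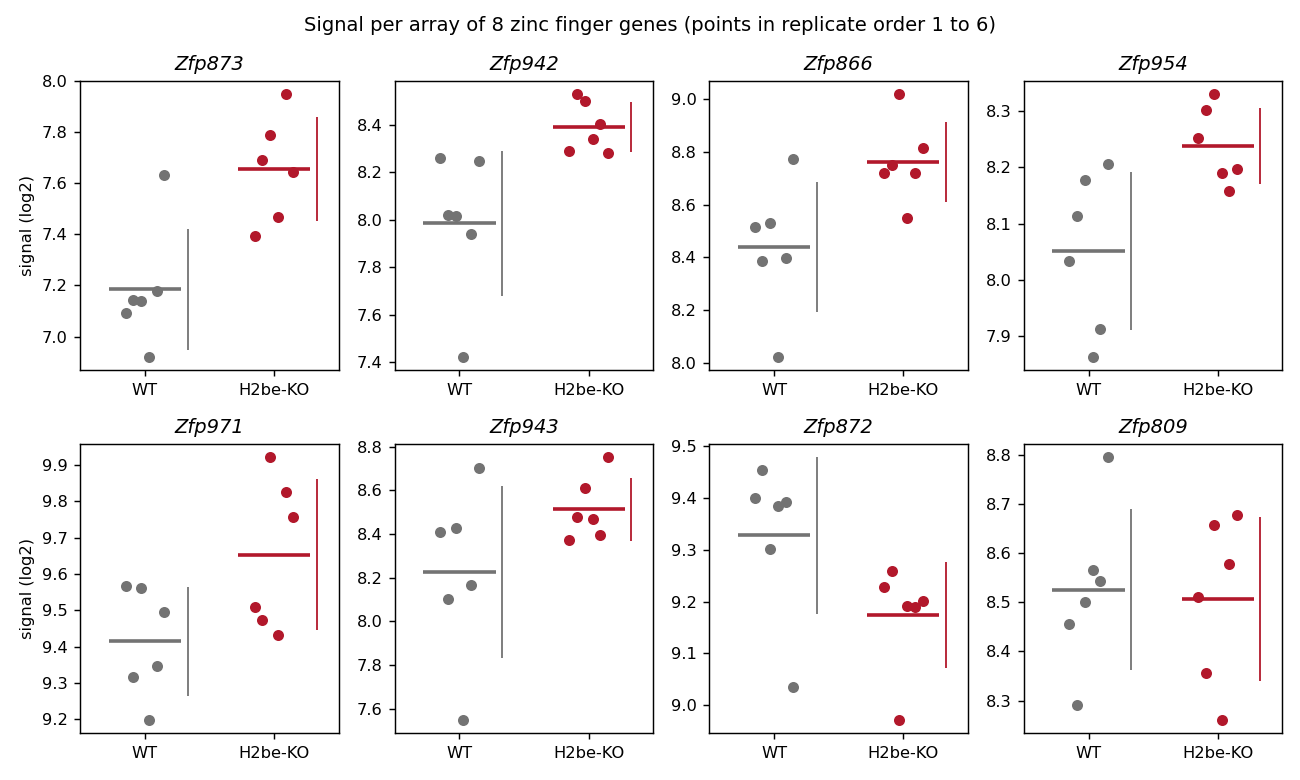
Signal (log2, vertical axis) of 8 zinc finger genes in the 6 WT (grey) and 6 H2be-KO (red) arrays. Each point is an array, horizontal lines are means, and vertical lines beside the points are 1 SD on either side. The axes start at different values. Every H2be-KO array lies above every WT array for Zfp942, whereas the genotypes overlap for the other genes shown.

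Zfp942, in the chromosome 17 cluster, was the only member whose genotypes did not overlap, as was the case for 0.178% of all probe sets tested. It read 8.28, 8.37 and 8.53 in H2be-KO at the lowest, median and highest array, and 7.42, 8.02 and 8.26 in WT. All 6 H2be-KO arrays lay above all 6 WT arrays, among which WT replicate 4 was the lowest. The difference was 0.41 ± 0.12 (SE), or 1.32-fold, and its two-sided exact permutation p of 0.0022 is the smallest that 6 against 6 arrays can give. Without any one array the difference stayed between 0.29 and 0.46. Within the arrays high in Xist it was 0.34 and within those high in Eif2s3y 0.47, each 3 against 3. The lack of overlap in these subsets follows from that over all arrays and is no further result.

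Zfp942 and Zfp943 stand head to head in RefSeq on GRCm38.p6, with 95 bases between their starts on opposite strands. Zfp943 read 8.37, 8.48 and 8.75 in H2be-KO and 7.55, 8.29 and 8.70 in WT. A single H2be-KO array exceeded all WT arrays, and the difference of 0.29 ± 0.15 (SE) did not pass (exact permutation p = 0.110). Deviations of the arrays from their genotype means correlated at 0.82 between these neighbours over the 12 arrays.

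Zfp866, on chromosome 8, read 8.55, 8.74 and 9.02 in H2be-KO and 8.02, 8.46 and 8.77 in WT at the lowest, median and highest array. All H2be-KO arrays lay above the WT mean, and 2 of 6 exceeded every WT array. The difference was 0.32 ± 0.12 (SE), or 1.25-fold (exact permutation p = 0.0217). Its neighbour Zfp869 differed by 0.23 ± 0.12 (exact permutation p = 0.0909) and deviated together with Zfp866 at 0.85 over the arrays. Zfp868, on the far side of Zfp869 from Zfp866, differed by -0.08 ± 0.12 and deviated with Zfp866 at 0.05. The values within this cluster thus did not run alike.

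Zfp954, on chromosome 7, varied little among the H2be-KO arrays. It read 8.16, 8.22 and 8.33 there and 7.86, 8.07 and 8.21 in WT, and 3 of 6 H2be-KO arrays exceeded all WT arrays. The difference was 0.19 ± 0.08 (SE), or 1.14-fold (exact permutation p = 0.0152). Zfp971, on chromosome 2 and also known as Etohi1, read 9.43, 9.63 and 9.92 in H2be-KO and 9.20, 9.42 and 9.57 in WT. Its H2be-KO arrays fell into 3 above every WT array and 3 within the WT range, and the difference was 0.24 ± 0.11 (SE), or 1.18-fold (exact permutation p = 0.0498). Over 26 other fits, limma's unadjusted p stayed under 0.05 in 26 for Zfp942 and in 25 each for Zfp873 and Zfp866. These last 2 lost it in the arrays high in Eif2s3y alone, a comparison of 3 against 3. The p stayed under 0.05 in 15 fits for Zfp954, which lost it without H2be-KO replicate 1, 2 or 3 or WT replicate 1, 4 or 5 (differences of 0.15 to 0.18), and in 16 for Zfp971, which lost it without H2be-KO replicate 3, 5 or 6 or WT replicate 2, 4 or 5 (0.18 to 0.22).

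Because members of a gene family can share promoter sequence, the 250 bases before the start of each gene were taken from RefSeq on GRCm38.p6, which held 54 of the 59 genes. The stretches of the 5 called members are shown 5′ to 3′ up to the last base before the gene start, so that the shared elements can be seen. Capitals mark CCAAT, or its reverse complement ATTGG, the letters of the CCAAT box bound by the factor NF-Y.
Zfp873, chr10:82047873-82048122, plus strand: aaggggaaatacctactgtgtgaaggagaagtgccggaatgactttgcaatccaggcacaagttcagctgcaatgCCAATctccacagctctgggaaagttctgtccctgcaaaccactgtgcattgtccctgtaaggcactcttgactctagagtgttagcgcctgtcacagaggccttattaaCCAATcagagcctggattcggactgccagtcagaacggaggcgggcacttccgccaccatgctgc
Zfp866, chr8:69774912-69775161, minus strand: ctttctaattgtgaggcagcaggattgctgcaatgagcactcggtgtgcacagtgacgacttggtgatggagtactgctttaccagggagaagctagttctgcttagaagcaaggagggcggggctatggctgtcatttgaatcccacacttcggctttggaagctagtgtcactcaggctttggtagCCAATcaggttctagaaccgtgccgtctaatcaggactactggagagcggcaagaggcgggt
Zfp954, chr7:7121477-7121726, minus strand: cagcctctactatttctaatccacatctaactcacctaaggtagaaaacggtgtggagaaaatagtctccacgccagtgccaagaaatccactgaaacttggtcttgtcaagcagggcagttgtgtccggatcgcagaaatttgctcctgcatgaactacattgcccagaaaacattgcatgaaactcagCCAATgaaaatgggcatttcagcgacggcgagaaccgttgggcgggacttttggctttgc
Zfp971, chr2:178023034-178023283, plus strand: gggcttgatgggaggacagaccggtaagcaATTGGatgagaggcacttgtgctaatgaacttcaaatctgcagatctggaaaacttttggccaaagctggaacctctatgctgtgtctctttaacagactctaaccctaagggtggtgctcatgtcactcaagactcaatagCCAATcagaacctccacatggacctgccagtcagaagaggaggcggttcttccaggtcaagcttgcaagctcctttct
Zfp942, chr17:21962465-21962714, minus strand: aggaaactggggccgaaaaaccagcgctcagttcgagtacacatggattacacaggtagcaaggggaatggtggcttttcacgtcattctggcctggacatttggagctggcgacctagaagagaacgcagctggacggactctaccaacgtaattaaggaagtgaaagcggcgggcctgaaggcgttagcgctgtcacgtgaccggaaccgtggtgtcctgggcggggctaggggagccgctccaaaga
For Zfp873 the first of 2 starts in RefSeq is shown. The nearest CCAAT lay 60 bases before the start of Zfp954, 62 before Zfp866, 65 before Zfp873 and 78 before Zfp971. Zfp942 held none in this window, and its stretch was richest in CG, with 17 against 2 in that of Zfp971.

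CCAAT was found on either strand in 37 of the 54 member promoters (68.5%). It occurred in 44.2% of 206 promoters of the other numbered Zfp genes and in 37.5% of 27025 genes with a promoter in RefSeq. The longer run CCAATCAG, which contains CCAAT and is seen above for Zfp873, Zfp866 and Zfp971, was found in 15 member promoters (27.8%), 9.22% of the other Zfp promoters and 4.43% of all genes. CCAGTCAG, which follows downstream in Zfp873 and Zfp971, was found in 6 member promoters (11.1%), 0 of the 206 and 1.71% of all genes. TATAAA was held by 2 members (3.70%) against 10.2% of the other Zfp promoters and 14.3% of all genes. TGACGT, part of the cyclic AMP response element, was held by 9 members (16.7%) against 9.22% and 7.29%. The full element TGACGTCA was held by 2 members (3.70%) against 3.88% and 1.77%. CCAATCAG and CCAGTCAG were chosen after the called promoters had been read, and shared descent of the genes was not separated from these counts. The letters did not divide the members by their difference between genotypes: the median was 0.16 over 36 tested probe sets with CCAAT, 4 of them called, and 0.14 over 17 without, 1 of them called.

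Members with a known silencing role were described whatever their values. Zfp809, which silences murine leukaemia viruses in embryonic stem cells by recognising the primer binding site for proline tRNA, read 8.26, 8.54 and 8.68 in H2be-KO and 8.29, 8.52 and 8.80 in WT. The genotypes overlapped along most of their range, with a difference of -0.02 ± 0.10 (SE) (exact permutation p = 0.842). Zfp961, which recognises the primer binding site for lysine tRNA, read 7.72 to 8.18 in H2be-KO and 7.43 to 8.12 in WT and differed by 0.08 ± 0.12 (exact permutation p = 0.520). Zfp819, a Trim28-binding protein described in pluripotent cells, read 6.44, 6.72 and 6.96 in H2be-KO and 6.09, 6.53 and 6.83 in WT. The genotypes overlapped, 2 H2be-KO arrays exceeded all WT arrays, and the difference was 0.22 ± 0.12 (exact permutation p = 0.128). None of these 3 genes was called.

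Zfp800, Zfp827 and Zfp830, described as known without a KRAB domain, gave differences of both signs. The other members were not sorted by domain. Zfp800, whose human counterpart acts in the development of endocrine cells of the gut, differed by 0.14 ± 0.11 (exact permutation p = 0.268). Zfp827, whose human counterpart recruits a nucleosome remodelling complex to telomeres, differed by -0.08 ± 0.10 (exact permutation p = 0.468). Zfp830, needed in early mouse embryos, differed by 0.14 ± 0.12 (exact permutation p = 0.381), where WT replicate 4 stood far below the other WT arrays. None passed the test.

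No member was called lower. Zfp872, on chromosome 9 beside Zfp809, read 8.97, 9.20 and 9.26 in H2be-KO and 9.03, 9.39 and 9.45 in WT. All 6 H2be-KO arrays lay below the WT mean, 5 of the 6 WT arrays lay between 9.30 and 9.45, and WT replicate 6 overlapped the H2be-KO range. The difference of -0.15 ± 0.09 (SE) did not pass (exact permutation p = 0.0649). Without WT replicate 6 it was -0.21, with a limma p of 0.013. Without H2be-KO replicate 3, the lowest H2be-KO array, it was -0.11, with a limma p of 0.21. Zfp850, on chromosome 7, read 5.47, 5.98 and 6.22 in H2be-KO and 5.86, 6.25 and 6.4 in WT, with a difference of -0.23 ± 0.13 (exact permutation p = 0.130). The other negative members ranged from -0.15 for Zfp957 to -0.02 for Zfp809, and each had an exact permutation p above that of Zfp850. Among them were Zfp865 at -0.10, Zfp846 and Zfp982 at -0.09, Zfp868, Zfp827 and Zfp939 at -0.08, and Zfp879 at -0.04.

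From array to array, the deviations of Zfp872 from its genotype means correlated negatively with those of 48 of the 57 other members tested, with a median of -0.42. They correlated at -0.70 between Zfp872 and its neighbour Zfp809, and at -0.87 between Zfp872 and Zfp959, the lowest value of any pair of members. The highest value, 0.97, belonged to Zfp958 on chromosome 8 and Zfp949 on chromosome 9. These are descriptions over the same 12 arrays.

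Position on the chromosomes was not part of the rule. The 59 genes lay on 14 chromosomes, and neighbouring members whose starts fell within 1000000 bases of each other formed 10 runs with 35 genes. The longest was on chromosome 17, from Zfp948 to Zfp945, where all 9 probe sets tested were positive, with a median of 0.21, a range from 0.08 to 0.41 and 1 called, Zfp942. Besides Zfp943, it held Zfp948 at 0.28, Zfp983 at 0.25, Zfp820 at 0.21, Zfp945 at 0.20, Zfp946 at 0.19, Zfp944 at 0.17 and Zfp947 at 0.08. A second run on chromosome 17, from Zfp871 to Zfp952, had a median of 0.11 over 4 probe sets. On chromosome 8, Zfp930, Zfp868, Zfp869 and Zfp866 had a median of 0.28, and on chromosome 2 Zfp971 and Zfp931 differed by 0.24 and 0.33. The chromosome 9 run of Zfp872, Zfp809 and Zfp810 had a median of -0.02. The 24 probe sets tested in no run had a median of 0.13, with 18 positive and 1 called, Zfp954.

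**Figure D3:**
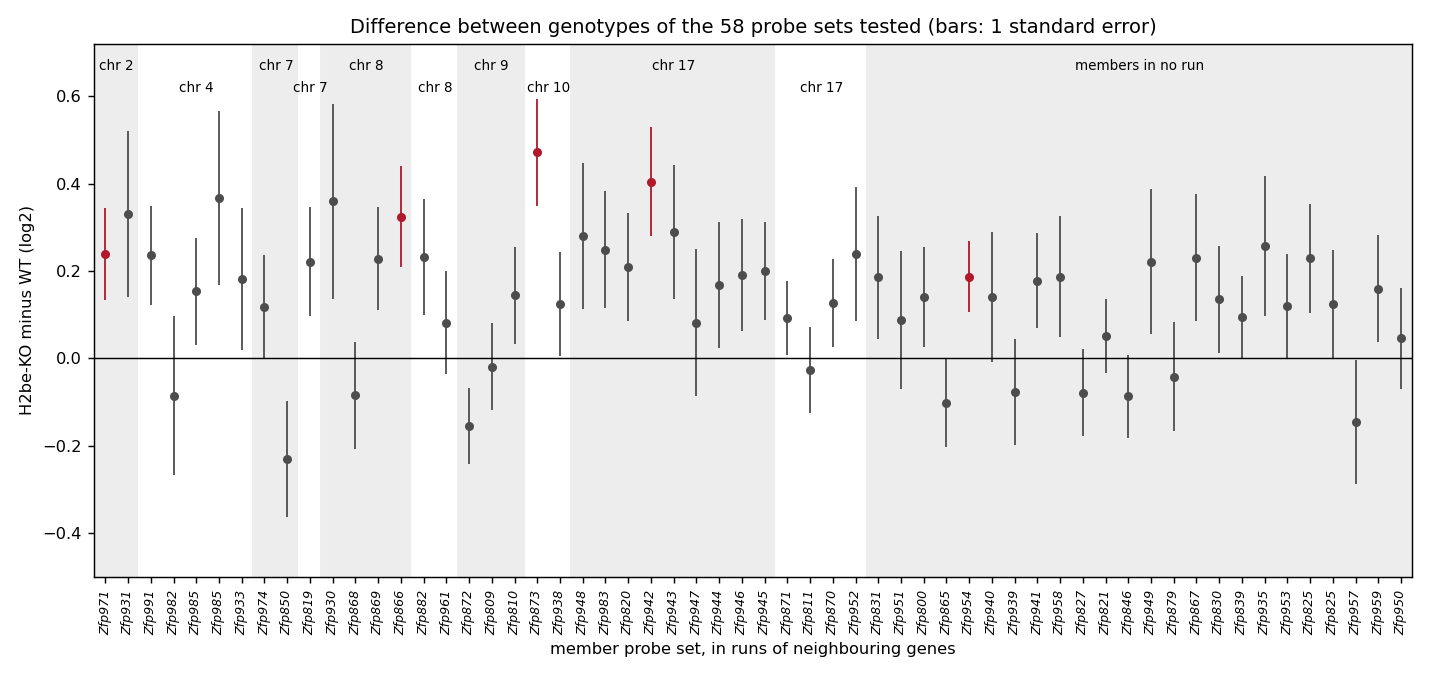
Log2 difference between H2be-KO and WT (vertical axis) of the 58 member probe sets tested, grouped into runs of neighbouring genes by chromosome (shaded bands), with members in no run at the right. Points are differences between the means of 6 arrays each, bars are 1 standard error of limma on either side, and red marks an unadjusted limma p under 0.05. All 9 points of the first chromosome 17 run lie above 0, whereas the chromosome 9 run spans 0.

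Arrays of the same genotype differed in the members as a whole. The mean signal over the 58 members ran from 7.59 to 7.85 in H2be-KO and from 7.31 to 7.78 in WT. WT replicate 4 held the lowest of all 12 values for 35 members, and WT replicate 6 and H2be-KO replicate 3 held the highest for 12 and 17. H2be-KO replicate 4 lay at the WT mean, with a median deviation of 0.0035, while the remaining H2be-KO arrays had medians from 0.13 to 0.32. The SD over WT arrays exceeded that over H2be-KO arrays for 42 of 58 members, with medians of 0.24 and 0.20, against 0.20 and 0.17 over all probe sets. Without WT replicate 4, the members' median difference was 0.08, and without WT replicates 4 and 6 together 8 members were called higher and 1 lower, as were 1337 and 978 of all probe sets.

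**Figure D4:**
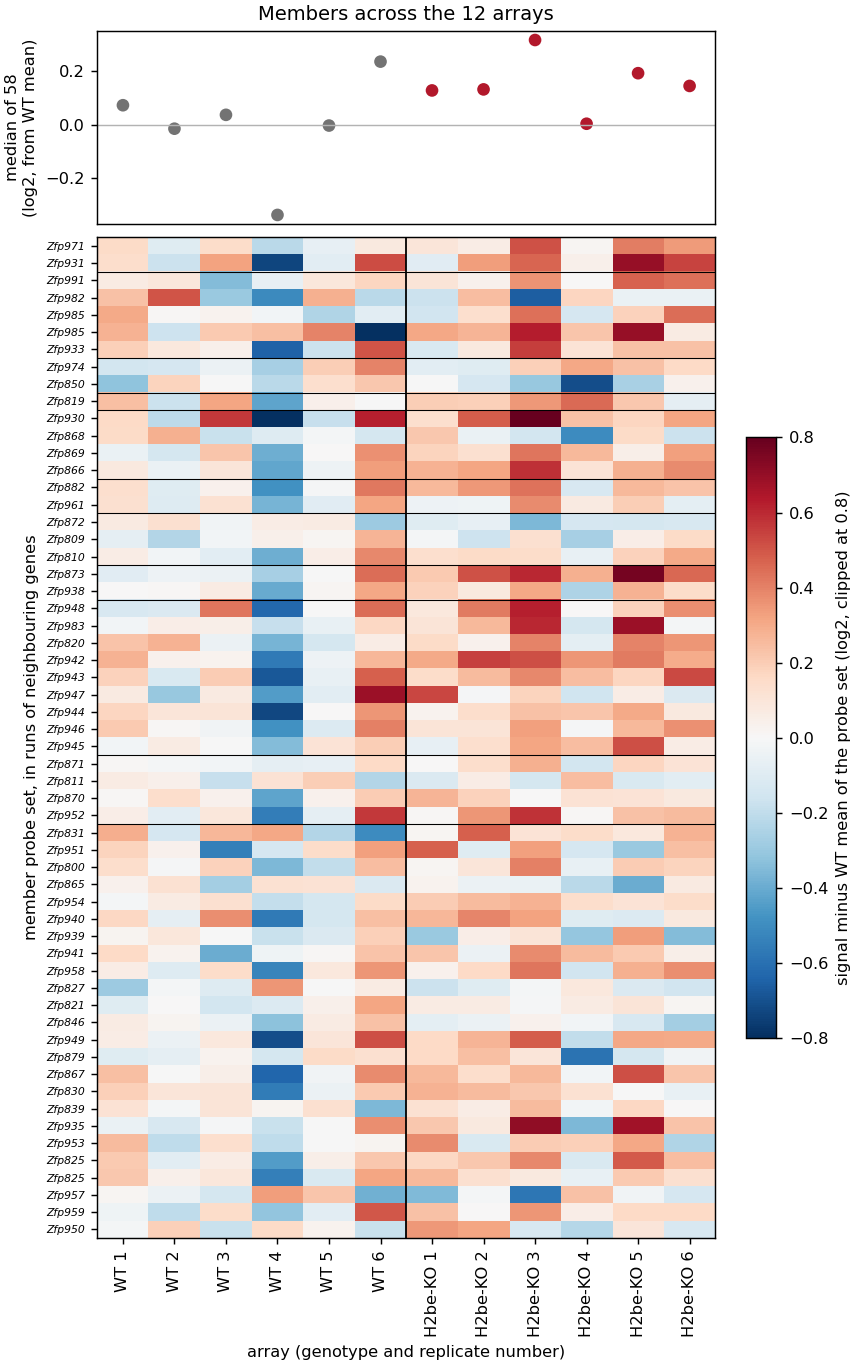
Top: median over the 58 members of the deviation from each probe set's WT mean (log2), for 6 WT (grey) and 6 H2be-KO (red) arrays. Bottom: the deviation of each member in each array (colour, log2, clipped at 0.8), in runs of neighbouring genes separated by lines. WT replicate 4 is low and WT replicate 6 and H2be-KO replicate 3 are high across many members.

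This spread was shared among the members beyond their genotype means. The mean pairwise correlation of their deviations was 0.26, with 70.7% of pairs above 0, against 0.0113 over all probe sets tested and 0.08 over the other numbered Zfp genes. It was higher still over the 30 corepressor probe sets described below, at 0.38, and at 0.34 with 1 probe set for each of their 22 genes. It was 0.60 within the chromosome 17 run of 9 and 0.21 among the 49 members outside it. Without WT replicates 4 and 6 it was 0.14 over the members and 0.0162 over all probe sets. All these values rest on the same arrays.

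The sexes were compared through the Xist and Eif2s3y signals. Within the arrays high in Xist, the member means of H2be-KO (7.7 to 7.85) lay above those of WT (7.58 to 7.67), 50 of 58 members were positive, and the median was 0.13 against 0.03 over all probe sets. Within the arrays high in Eif2s3y, which include WT replicates 4 and 6, the member means overlapped (7.59 to 7.79 and 7.31 to 7.78), 43 of 58 were positive, and the median was 0.16 against 0.02. In these sets of 3 against 3, limma called 5 members and 1 member higher, and none lower. Over all probe sets, it called 721 higher and 329 lower in the arrays high in Xist and 321 and 274 in those high in Eif2s3y. Zfp873 differed by 0.50 and 0.44, Zfp866 by 0.35 and 0.30, and Zfp971 by 0.15 and 0.32 in the arrays high in Xist and high in Eif2s3y. With the sex signal as a term, 5 members were again called higher and 0 lower. Whether the genotype effect differed between the sexes was not tested.

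Some genes had more than 1 probe set. For Zfp825 they differed by 0.23 ± 0.12 and 0.12 ± 0.13, and deviations correlated at 0.81. The first of these was numbered among probe sets of chromosome 1, where 21 of its 23 placed neighbours lay, although Zfp825 is on chromosome 13, and for no other member did most placed neighbours lie on another chromosome. Zfp985, on chromosome 4, had 2 probe sets tested, at 0.37 ± 0.20 and 0.15 ± 0.12, whose deviations correlated at 0.15. Averaged by gene symbol, Zfp985 differed by 0.30 and passed, with an unadjusted limma p of 0.0237. That average took in a further Zfp985 probe set, which lay below the level tested. This probe set read 4.0 to 4.7 in H2be-KO and 3.66 to 4.43 in WT, and differed by 0.38 (exact permutation p = 0.0455). The other members below that level were Zfp975, Zfp979 and Zfp980. Zfp979, known as Ssm1b, a strain-specific modifier of transgene methylation, read 3.36 to 4.33 in H2be-KO and 3.0 to 4.88 in WT.

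A further 33 probe sets named genes of this range but failed the rule, 29 with several genes and 4 with a letter in the symbol. Of the 32 tested, 28 were positive (87.5%), with a median of 0.15, against 56.2% and 0.02 over all probe sets tested. Calls numbered 7 higher (21.9%) and 0 lower, against 3.78% and 1.77% of all. The 7 were Zfp874b at 0.33 and 6 probe sets that each name several genes of the chromosome 4 cluster, such as Zfp985, Zfp987, Zfp991 and Zfp992, at 0.24 to 0.30. The last 6 list overlapping sets of genes and are no separate measurements. The chromosome 4 members with 1 symbol, from Zfp991 to Zfp933, had a median of 0.18 over 5 probe sets, none of them called on its own, with Zfp991 at 0.24 ± 0.11 (exact permutation p = 0.0779).

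Genes of the silencing machinery that KRAB proteins recruit were given from a list of 24 symbols, of which 22 were found with 30 probe sets. None of the 30 was called in either direction, while 26 were positive (86.7%), with a median of 0.09, against 56.2% and 0.02 over all probe sets tested. Several of the 30 read Cbx3, some with equal values in every array, so the 30 are no separate measurements. Trim28, the corepressor that binds the KRAB domain, read 9.28 to 9.69 in H2be-KO and 9.22 to 9.66 in WT and differed by 0.07 ± 0.10 (exact permutation p = 0.459). Setdb1 differed by 0.12 ± 0.13 (exact permutation p = 0.444) and Cbx5 by 0.15 ± 0.11 (exact permutation p = 0.251). In Setdb1 as in the members, H2be-KO replicate 3 was the highest H2be-KO array and WT replicate 6 the highest WT array.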

How the data were processed

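The log2 signals, 1 per probe set and array, were deposited by the authors, who, per the study's methods, screened arrays for outliers with arrayQualityMetrics and applied IterPLIER summarisation and sketch-quantile normalization in Affymetrix Expression Console on Mouse Gene 1.0 ST arrays. Neither tool versions nor the annotation's build are given in the sources used here. Normalization removes shifts common to most transcripts, and the number of arrays, 6 per genotype, limits the precision.

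Groups came from sample titles. Nothing in the labels pairs the arrays or gives their sex. Of 35556 probe sets, 6612 controls were left out by their numbering. Of the 28944 kept, 21789 carried 1 symbol, 1621 several and 5534 none. Probe sets with a mean over log2 5 (28151) were fitted in limma 3.58.1 under R 4.3.3 with genotype as the only term, then moderated with eBayes. A call is an unadjusted p under 0.05, with Benjamini-Hochberg values over all probe sets beside it. Exact permutation tests, two-sided, used all 924 choices of 6 of 12 arrays. The script was tested on simulated data.

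Members and lists were chosen with earlier results of these data known. Named were H2be, called members, the 10 higher and 10 lower members with the smallest p, members with known roles, genes with several probe sets, and Trim28, Setdb1 and Cbx5. Zfp862 and Zfp932 of that rule had no probe set among the 62. Motifs, all 16 searched on both strands, the run length, pairs of neighbours, the split by Xist and Eif2s3y and the 2 arrays left out together were chosen after values were seen. Protein domains were not analysed here. Alternatives covered filter, floor, normalization, block, array weights, moderation, averaging by gene, exact tests, the member rule and left-out arrays.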

Additional observations from a re-analysis of the deposited data

Results flagged for a closer look

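Among 64 groups of 6 arrays checked, 4 held an array whose gap to its nearest neighbour exceeded Dixon's critical share of the group's range, where chance flags about 1 in 20 groups. For Zfp873, WT replicate 6 read 7.63 while the other WT arrays read 6.92 to 7.18. For Zfp872, the extreme arrays lay on the low side in both genotypes: H2be-KO replicate 3 read 8.97 against 9.19 to 9.26 in the others, and WT replicate 6 read 9.03 against 9.30 to 9.45. For Zfp830, WT replicate 4 read 7.465 against 7.97 to 8.23 in the other WT arrays.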

How the results depend on the processing

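The members' median difference, 0.16 in the main fit, kept its sign in all fits. It ranged from 0.08 without WT replicate 4 to 0.21 without WT replicate 6, so its size depended on single arrays. The count of 5 called higher and 0 called lower depended on the fit: with the replicate number as a block it was 15 and 0 (2039 and 951 over all probe sets, against 1065 and 498), with array weights 14 and 1 (2694 and 1405 over all), without WT replicates 4 and 6 it was 8 and 1, without H2be-KO replicates 1 and 6 the lower count was 1, and in the arrays high in Eif2s3y alone, with fewer samples, the higher count was 1. Leaving out each array in turn gave 3 to 17 higher and 0 to 1 lower. Other filters, normalizations and member rules gave 4 to 6 higher and 0 lower. The cause of these changes was not tested. Same-numbered arrays correlated at 0.0251 to 0.592 in their deviations, over 0.1 in 4 of 6 pairs. Of the 6 H2be-KO arrays, 4 correlated best with their own number. The labels state no pairs, so the main fit did not use the numbers, and whether they mark pairs was not tested. Zfp809 turned to 0.0526 with array weights and ranged from -0.0657 to 0.035 over left-out arrays. Zfp982 ranged from -0.188 to 0.0291 and Zfp879 from -0.0991 to 0.0676 there. The H2be difference lost its call without H2be-KO replicate 4 or 6 or WT replicate 3, and ranged from -0.29 to -0.19. Signals under log2 5 lie near background.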
